A study of Mus musculus with 9 samples.

Results

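The genes of sterol and fatty acid synthesis that the SREBP transcription factors regulate, together with the genes that control SREBP itself, form a list of 33 genes, and their expression was examined by RNA-seq in 4T1 cells. The list was chosen by name, with earlier results of these data known. It holds a sterol arm of 17 synthesis enzymes, a fatty acid arm of 9 genes, 5 control genes and 2 genes of sterol handling. Among 24421 genes with counts, 12575 had enough reads to be tested, and 31 of the 33 listed genes were among them. These were all 17 genes of the sterol arm, 7 of the 9 of the fatty acid arm, all 5 control genes and both handling genes.

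SREBPs are membrane-bound transcription factors of the endoplasmic reticulum. When sterols are scarce the escort protein SCAP carries them to the Golgi, where proteases release the active part, and when sterols are plentiful the INSIG proteins hold SCAP back. SREBP2 is known mainly for the cholesterol synthesis genes and SREBP1 mainly for fatty acid synthesis, with much overlap, and polyunsaturated fatty acids are known to act on SREBP1.

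4T1 is an established mouse mammary carcinoma line, here grown for 5 days in medium with 10% serum. A first group of 3 libraries came from 3D spheroids with no palmitate added, a second group of 3 from 3D spheroids given 75 µM palmitate, and the remaining 3 from 2D monolayers given 75 µM palmitate. Palmitate, the saturated fatty acid that fatty acid synthase makes, was supplied bound to albumin. The sequencing libraries contain the poly(A) RNA of whole cultures of 1 cell line, so that fewer cells of a type and less RNA per cell cannot be told apart. 2D cultures without palmitate were not analysed here, and the labels do not say whether the 3 libraries of a group are separate cultures, so the p-values measure the spread between these libraries, which may be technical.

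Library totals lay between 6595514 and 31177756 counts, replicate 3 of the 3D group with palmitate being the smallest. Replicate 1 of the 3D group without palmitate stood below its companions across the sterol arm, and results that rest on either library are also given without it. Every listed gene that was tested had between 52 and 24657 counts in each library. The epithelial identity of the cultures was checked with 6 genes (Epcam, Krt7, Krt8, Krt18, Krt19 and Cdh1), which summed to 5028 to 5081 CPM, reads scaled to a common library size, in 3D without palmitate, 4965 to 5192 CPM in 3D with palmitate and 3904 to 4218 CPM in 2D. Markers of leukocytes, endothelium, adipocytes and hepatocytes had at most 11 counts in any library. Between 3D and 2D the 6 epithelial genes did not move together. Krt7 was higher in 2D (824 to 922 CPM) than in both 3D groups (562 to 662 CPM), the other 5 were lower in 2D, and Epcam differed most, at 257 to 266 CPM in 2D and 672 to 834 CPM in 3D. Their part in the differences described here was not tested.

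The promoter windows of 4 genes are shown with matches to motifs through which this gene group is known to be read. These are the sterol response element, to which SREBPs bind, and the NF-Y box of their frequent partner NF-Y. The E box, which SREBP1 can also bind, was marked as well. Not every window holds each motif, and Mvd and Fasn held NF-Y boxes only. Each sequence runs 5′ to 3′ on the gene's own strand up to the annotated RefSeq start, in assembly GRCm38.p6. For Insig1 it stops earlier, where the GENCODE gene begins. Capitals mark matches to TCACNCCAC (sterol response element), CCAAT (NF-Y box) or CACGTG (E box) on either strand, so that an NF-Y box on the other strand reads ATTGG and overlapping matches run together. The windows lie at chr13:119690101-119690350 (plus strand) for Hmgcs1, chr8:122443423-122443672 (minus) for Mvd, chr5:28071162-28071362 (plus) for Insig1 and chr11:120824548-120824797 (minus) for Fasn.
Hmgcs1: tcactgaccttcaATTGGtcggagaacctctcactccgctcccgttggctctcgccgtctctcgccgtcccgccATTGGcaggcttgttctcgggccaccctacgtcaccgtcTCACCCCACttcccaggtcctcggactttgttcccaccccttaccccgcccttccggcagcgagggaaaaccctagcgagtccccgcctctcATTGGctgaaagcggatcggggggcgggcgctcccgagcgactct
Mvd: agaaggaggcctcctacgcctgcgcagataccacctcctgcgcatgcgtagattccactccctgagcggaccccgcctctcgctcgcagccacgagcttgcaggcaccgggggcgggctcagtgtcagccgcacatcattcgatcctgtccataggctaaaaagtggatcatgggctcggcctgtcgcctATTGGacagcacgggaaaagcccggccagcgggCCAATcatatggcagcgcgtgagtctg
Insig1: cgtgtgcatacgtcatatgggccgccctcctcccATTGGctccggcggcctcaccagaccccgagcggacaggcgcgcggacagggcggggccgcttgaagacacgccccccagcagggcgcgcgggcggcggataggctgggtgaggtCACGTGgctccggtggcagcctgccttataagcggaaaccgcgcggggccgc
Fasn: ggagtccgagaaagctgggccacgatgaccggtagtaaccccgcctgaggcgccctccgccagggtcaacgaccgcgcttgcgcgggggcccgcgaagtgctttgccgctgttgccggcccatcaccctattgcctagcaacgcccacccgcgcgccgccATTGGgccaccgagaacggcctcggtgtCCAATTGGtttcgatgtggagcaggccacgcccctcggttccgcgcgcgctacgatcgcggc

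Hmgcs1 encodes the cytosolic synthase that makes hydroxymethylglutaryl-CoA. Its window held the only sterol response element match among the sterol genes, TCACCCCAC, which begins 137 bases before the start. In windows of 300 bases (250 before to 50 after each start), 29 of the 33 genes were examined, and Fdps, Fdft1, Sqle and Stard4 were not analysed here. An NF-Y box was present for 13 of 14 sterol genes (92.9%), all but Acat2, for 4 of 5 control genes and for 5 of 9 fatty acid genes (55.6%). Of 9536 tested genes with a window 43.1% had one, and of all 32851 windows 37.4%. The sterol response element letters were found for Hmgcs1 and Mlxipl, 2 of 29 genes (6.9%), against 1.38% of tested genes and 1.24% of all windows. E boxes occurred in Hsd17b7, Sc5d and Dhcr7 of the sterol arm, in Scap and Insig1 of the control genes and in Mlxipl, while 11.8% of tested genes and 7.15% of all windows had one. Genes with several starts counted once if any window matched, and a window without these letters says nothing about whether a factor binds.

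**Figure D1:**
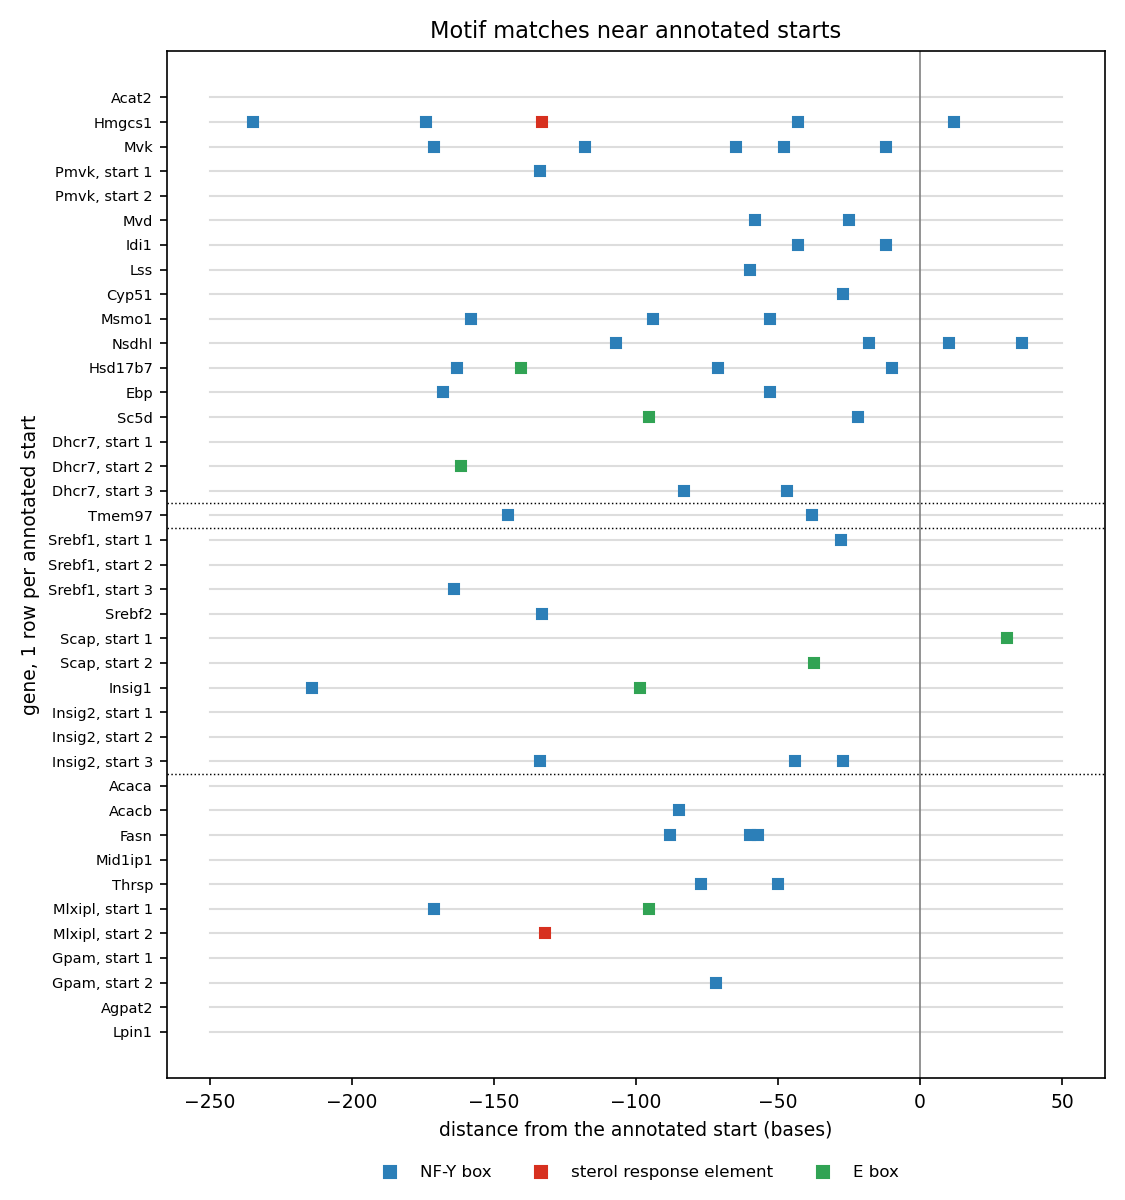
Positions of motif matches in the promoter windows, with 1 row per annotated RefSeq start, grouped from top to bottom as sterol, sterol handling, control and fatty acid genes; the horizontal axis is the distance from the start in bases. NF-Y boxes (blue) mark 13 of 14 sterol genes and 5 of 9 fatty acid genes, and the sterol response element letters (red) appear for Hmgcs1 and Mlxipl.

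Per base of exon, Fasn had the highest level of the list in 3D cultures with palmitate. Its mean was 76.0 RPKM (CPM divided by exon length in kilobases), followed by Hmgcs1 with 48.5, Sqle with 35.6, Cyp51 with 31.6, Msmo1 with 28.6 and Tmem97 with 28.0 RPKM. Acacb was lowest of the tested genes, at 0.726 RPKM. Thrsp and Mlxipl, which encode the lipogenic protein Spot 14 and the carbohydrate-responsive factor ChREBP, did not pass the filter on low counts. Thrsp had 6, 3 and 1 reads in 3D without palmitate, 1, 2 and 0 in 3D with palmitate and 2, 0 and 0 in 2D. Mlxipl had 3, 1 and 0 reads, then 4, 2 and 0, then 1, 9 and 1 in the same groups. Both genes were at the edge of detection in every condition, and no fold change is given for them.

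To ask how growth in 3D relates to these genes when palmitate is present, 3D cultures with palmitate were compared with 2D cultures with palmitate. Most of the sterol arm was lower in 3D. Of its 17 genes, 13 fell, 2 rose and 2 did not pass the test (edgeR's quasi-likelihood test, Benjamini-Hochberg adjusted p under 0.05), and the median log2 fold change was -0.40 against 0.01 over all genes tested. In this comparison 68.3% of all tested genes were called, 34.5% higher and 33.9% lower, so that the 15 of 17 called in either direction stand beside a high background while the 13 lower calls stand beside 33.9%. The fatty acid arm did not move one way: 3 of its 7 tested genes rose, 2 fell and 2 did not pass, with a median log2 fold change of 0.10. The medians of the arms differed by -0.50 (sterol minus fatty acid). This difference holds for the listed genes alone, since 15 further fatty acid and glycerolipid genes, described below, had a median of -0.30.

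The mevalonate steps, from acetyl-CoA to farnesyl diphosphate, had the lowest median of the sterol stretches, with 6 of 7 genes lower and a median log2 fold change of -0.79. Mvd, whose product decarboxylates mevalonate diphosphate to give isopentenyl diphosphate, occupies bases 122433601 to 122443422 of chromosome 8 (GRCm38). Levels were 35.2, 36.7 and 37.7 CPM in the 3 libraries of 2D cultures, 16.3, 15.04 and 14.4 CPM in 3D with palmitate and 11.5, 18.4 and 15.7 CPM in 3D without. All 6 libraries from 3D were far below the 2D libraries, and the groups did not overlap. Mvd fell by 1.24 on the log2 scale (standard error 0.127, adjusted p = 7.36e-07 from edgeR), to 0.423 times its level in 2D.

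Acat2, which encodes the cytosolic thiolase that joins acetyl-CoA units at the entry of the pathway, lies on chromosome 17 from 12942890 to 12960747. In 2D it had 74.7, 73.0 and 86.2 CPM, in 3D with palmitate 42.3, 34.2 and 33.5 CPM and in 3D without palmitate 27.4, 40.4 and 34.2 CPM. The 3D and 2D libraries again did not overlap. The change of -1.06 on the log2 scale (standard error 0.124, adjusted p = 2.76e-06 from edgeR) and that of Mvd were the 2 of the arm that reached 1 in size, and 5.84% of all tested genes fell by at least 1. The paralog Acat3 had at most 41 counts in a library.

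Hmgcs1 lies on chromosome 13 from 119690379 to 119708260 and had a smaller change than Acat2 before it and Mvk after it, a difference that was not tested. Its levels were 289, 294 and 279.5 CPM in 2D, 204, 213 and 251 CPM in 3D with palmitate and 229.7, 282 and 285 CPM in 3D without palmitate. The 3D libraries with palmitate all lay below 2D, whereas 2 of the 3 without palmitate lay inside the range of 2D. Hmgcs1 fell by 0.37 in 3D with palmitate (standard error 0.0898, adjusted p = 0.00187 from edgeR). An antisense gene overlaps 12.1% of its exon length, and reads of the gene and its antisense partner are separated only if strand was used in counting, which is not given in the sources used here.

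Of the other mevalonate genes, the kinases Mvk and Pmvk fell by 0.71 and 0.79 on the log2 scale, and Fdps, the farnesyl diphosphate synthase, fell by 0.91 (adjusted p from 9.31e-05 to 6.63e-06 in edgeR). Exons of a predicted gene on the same strand, not analysed here, cover 26.7% of the Fdps exon length, so its count is less certain. Idi1 was the exception in this stretch. This isomerase of isopentenyl diphosphate had 12.2, 12.2 and 9.04 CPM in 2D and 9.94, 11.6 and 13.3 CPM in 3D with palmitate. Its groups overlapped, and its log2 fold change was 0.01 with a 95% interval from -0.33 to 0.35 (adjusted p = 0.965 from edgeR).

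**Figure D2:**
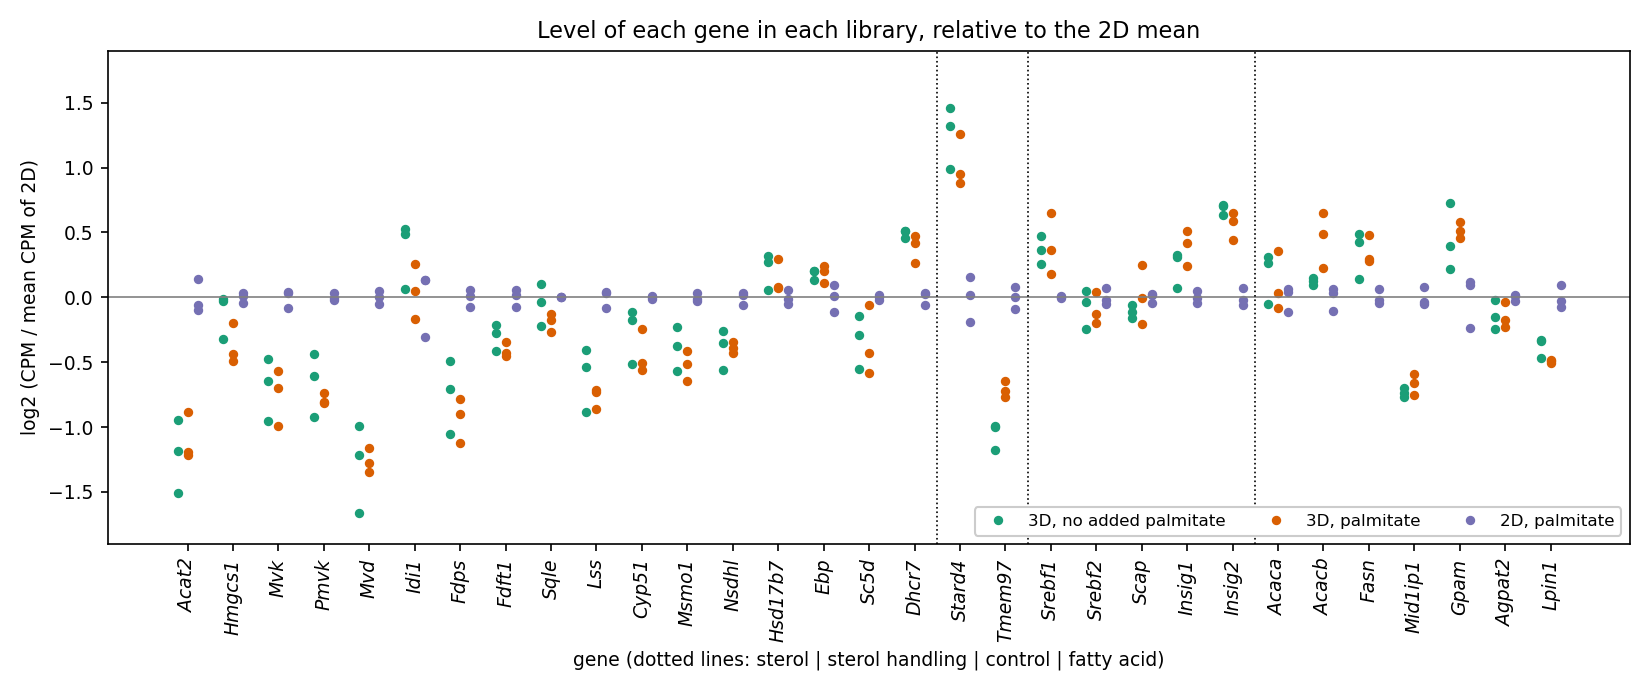
Each of the 31 tested genes in each of the 9 libraries, as log2 of its CPM over the mean CPM of the 3 libraries from 2D, with points for libraries (green 3D without palmitate, orange 3D with palmitate, purple 2D with palmitate) and dotted lines between sterol, sterol handling, control and fatty acid genes. Points of both 3D groups lie well below 0 from Acat2 to Fdps except for Idi1 and, less clearly, Hmgcs1, while Stard4, Insig2 and Dhcr7 lie above 0.

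The squalene and lanosterol steps also fell, in 3 of 3 genes. Lss, which closes the sterol ring, fell by 0.77, Fdft1, the squalene synthase, by 0.40 and the squalene epoxidase Sqle by 0.19 on the log2 scale. Levels of Sqle were 225.6, 225.4 and 225.6 CPM in 2D and 199.9, 187 and 206 CPM in 3D with palmitate. The groups were apart but close, and its adjusted p of 0.0371 from edgeR rose above 0.05 in 7 of 18 alternative fits. Ctsb, on the other strand, shares 18.3% of the exon length of Fdft1.

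After lanosterol the direction differed between genes, without a clear order along the pathway. Cyp51, Msmo1 and Nsdhl, which remove the methyl groups of lanosterol, fell by 0.44, 0.53 and 0.39 on the log2 scale, and Sc5d, a late desaturase, by 0.37. Dhcr7, the reductase that completes cholesterol, rose. Its levels were 56.3, 60.2 and 59.9 CPM in 2D, 81.4, 78.7 and 70.4 CPM in 3D with palmitate and 80.5, 83.9 and 83.7 CPM in 3D without. Every 3D library was above every 2D library, and Dhcr7 gained 0.39 on the log2 scale (standard error 0.0671, adjusted p = 0.000111 from edgeR). The sterol isomerase Ebp rose by 0.19 (adjusted p = 0.0311 from edgeR), a call that was lost in 8 of 18 alternative fits. Hsd17b7, a ketosteroid reductase that acts with Nsdhl, had a log2 fold change of 0.13 and did not pass (adjusted p = 0.170 from edgeR), although its 3D libraries with palmitate (46.5, 46.8 and 54.5 CPM) were all above those from 2D (44.0, 46.2 and 42.8 CPM). Groups did not overlap for 13 sterol genes in the lower and 3 in the higher direction, where 34.8% and 34.6% of all tested genes (69.4% in all) did not.

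**Figure D3:**
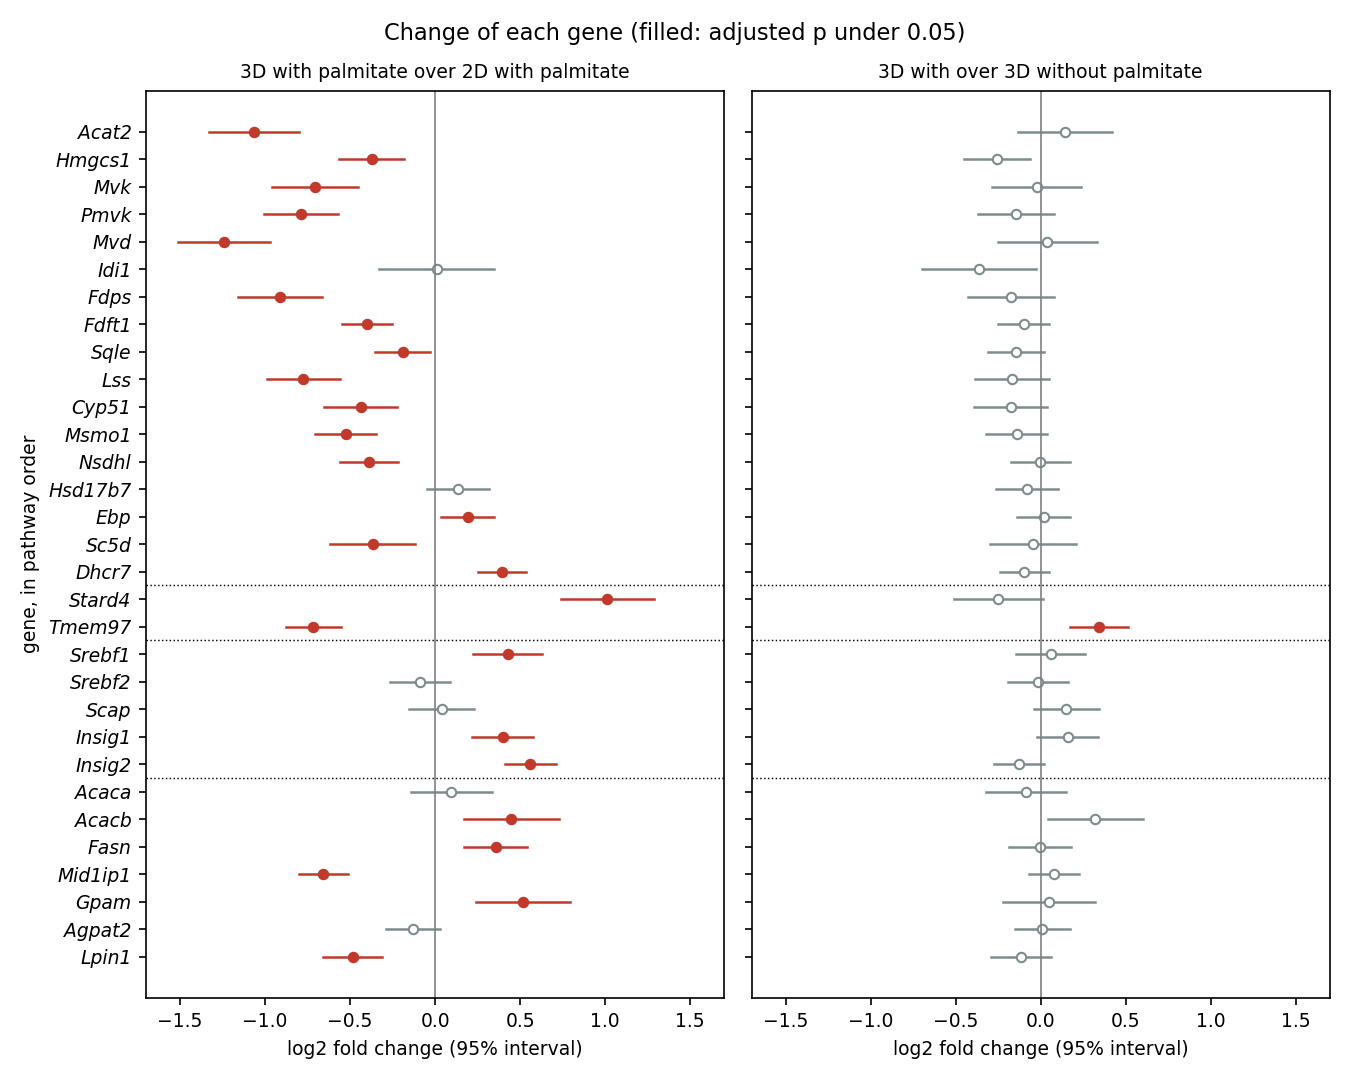
Log2 fold change with its 95% interval for each tested gene in pathway order, for 3D over 2D with palmitate (left) and for 3D with over 3D without palmitate (right); filled red points have an adjusted p under 0.05 in edgeR's quasi-likelihood test. On the left 16 genes are lower and 9 higher, and on the right Tmem97 alone is filled.

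The handling genes moved in opposite directions. Stard4, which encodes a carrier of cholesterol between membranes, had 28.4, 31.3 and 24.6 CPM in 2D, 51.9, 54.2 and 67.4 CPM in 3D with palmitate and 55.9, 70.2 and 77.1 CPM in 3D without. The lowest 3D library was well above the highest 2D library. Stard4 rose by 1.01 on the log2 scale (standard error 0.128, adjusted p = 6.59e-06 from edgeR), or 2.02 times, and 9.83% of all tested genes rose by at least 1. Tmem97, the sigma-2 receptor, a membrane protein that binds sterols, had 59.0, 63.1 and 66.6 CPM in 2D and 36.9, 40.3 and 38.1 CPM in 3D with palmitate. Here the 2D libraries were higher without overlap, and Tmem97 fell by 0.72 in 3D (standard error 0.0758, adjusted p = 1.04e-06 from edgeR).

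Among the 5 control genes 3 rose in 3D and 0 fell in edgeR or in DESeq2, where the 3 were also the only ones at an unadjusted p under 0.05 in edgeR (70.9% of all tested genes), with a median log2 fold change of 0.40. Insig2, which retains SCAP in the endoplasmic reticulum, had 53.4, 50.2 and 48.8 CPM in 2D, 69.1, 76.5 and 79.8 CPM in 3D with palmitate and 78.7, 82.5 and 83.4 CPM in 3D without. Its 2D libraries were lowest without overlap, and it rose by 0.56 (standard error 0.0701, adjusted p = 5.96e-06 from edgeR). Insig1, whose own promoter is a known SREBP target, had 58.1, 61.9 and 59.8 CPM in 2D, 85.5, 70.9 and 80.1 CPM in 3D with palmitate and 63.0, 75.1 and 74.3 CPM in 3D without. Every 3D library was above every 2D library. Insig1 rose by 0.40 (standard error 0.0840, adjusted p = 0.000715 from edgeR), in the direction opposite to most of the sterol enzymes.

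Srebf1, which encodes SREBP1, had 96.8, 96.1 and 95.6 CPM in 2D, 150.8, 124 and 109 CPM in 3D with palmitate and 115, 134 and 124 CPM in 3D without. The 2D libraries were tightly grouped below all others, and Srebf1 rose by 0.43 (standard error 0.0961, adjusted p = 0.00118 from edgeR). Srebf2, the gene of SREBP2, had 184, 201 and 188 CPM in 2D, 196, 175 and 166 CPM in 3D with palmitate and 161, 197 and 186 CPM in 3D without. Scap had 108.3, 108.4 and 103 CPM in 2D, 127, 106 and 92.3 CPM in 3D with palmitate and 98.6, 102 and 95.5 CPM in 3D without. Both overlapped between groups, with log2 fold changes of -0.09 (95% interval -0.27 to 0.09, adjusted p = 0.346) for Srebf2 and 0.04 (-0.15 to 0.23, adjusted p = 0.708) for Scap in edgeR. After every library was corrected for its dependence on GC content and exon length, both were called lower, at -0.25 (adjusted p = 0.000444) and -0.13 (adjusted p = 0.0328).

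In the fatty acid arm Fasn, which makes palmitate from malonyl-CoA, lies on chromosome 11 from 120805846 to 120824547. It had 641, 679 and 633 CPM in 2D, 907, 801 and 789 CPM in 3D with palmitate and 717, 915 and 873 CPM in 3D without. Every 3D library exceeded every 2D library. Fasn rose by 0.36 in 3D (standard error 0.0854, adjusted p = 0.00190 from edgeR), or 1.28 times. Its exons span 10947 bases with 57.9% GC, and after the correction for GC content and exon length the change was 0.09 with an adjusted p of 0.189 in edgeR, which ended the call.

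The acetyl-CoA carboxylases, which make malonyl-CoA for Fasn (Acaca) and at mitochondria (Acacb), also moved with that correction. Acaca lies on chromosome 11 from 84129672 to 84401651 and had 79.6, 80.6 and 71.5 CPM in 2D, 73.1, 79.0 and 98.8 CPM in 3D with palmitate and 74.5, 95.5 and 92.9 CPM in 3D without. The groups overlapped, at 0.10 on the log2 scale (95% interval -0.14 to 0.33, adjusted p = 0.456 from edgeR) without and -0.25 (adjusted p = 0.00477) with the correction. Acacb had 5.29, 5.19 and 4.72 CPM in 2D and 7.10, 5.93 and 7.96 CPM in 3D with palmitate, without overlap. It rose by 0.45 (standard error 0.130, adjusted p = 0.00682 from edgeR), and with the correction this became 0.19 with an adjusted p of 0.190.

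**Figure D4:**
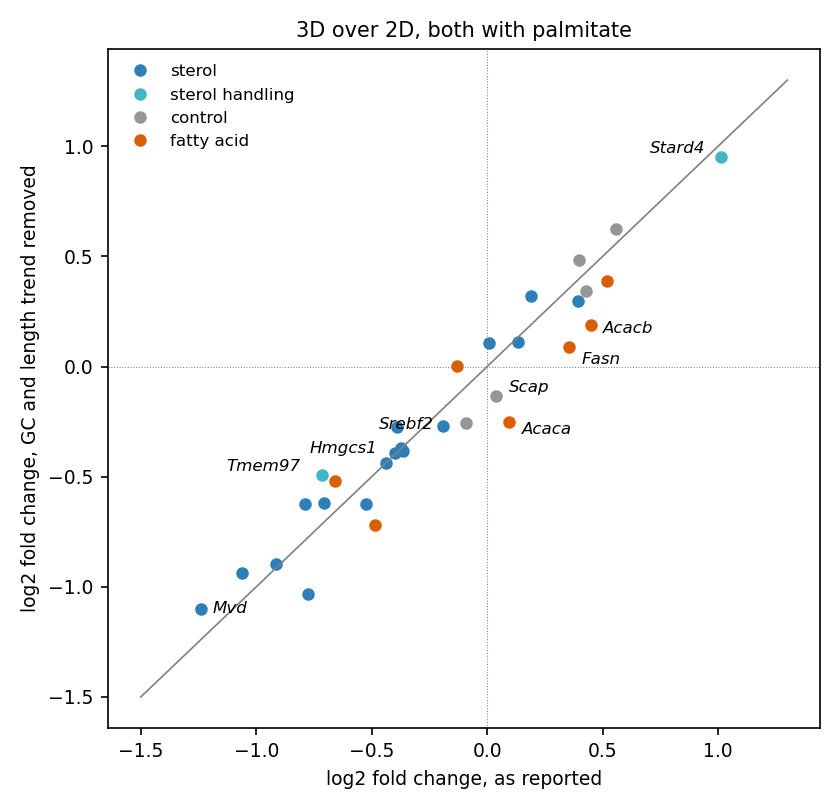
Log2 fold change of each tested gene in 3D over 2D with palmitate as reported (horizontal) and after the correction for GC content and exon length (vertical), with the line of equality. Fasn, Acacb and Acaca lie below the line, Acaca, Scap and Agpat2 change sign, and the 13 sterol genes that fell stay below 0.

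The remaining genes of the arm were split. Gpam, the mitochondrial acyltransferase that starts glycerolipid synthesis, rose by 0.52 (adjusted p = 0.00240 from edgeR) and kept its call with the correction, at 0.39. Mid1ip1, an activator of acetyl-CoA carboxylase, fell by 0.66 and the phosphatidate phosphatase Lpin1 by 0.49 (adjusted p = 6.86e-07 and 9.85e-05 from edgeR). An antisense gene covers 25.5% of the Mid1ip1 exon length. Agpat2, the next acyltransferase after Gpam, had a log2 fold change of -0.13 and an adjusted p of 0.136. The correction left 13 of the 17 sterol genes lower and 2 higher, with a median of -0.39. Of the 7 fatty acid genes 1 was then called higher and 3 lower. In that fit 71.8% of all tested genes were called and 36.9% were called lower.

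Averaged over each arm, the contrast between the arms was visible in the single libraries. The mean log2 CPM of the sterol arm was 6.19 ± 0.01 (SD, n = 3) in 2D, 5.75 ± 0.03 (SD, n = 3) in 3D with palmitate and 5.85 ± 0.19 (SD, n = 3) in 3D without. That of the fatty acid arm was 5.50 ± 0.05, 5.52 ± 0.04 and 5.48 ± 0.08 in the same order (SD, n = 3 each). The sterol arm thus exceeded the fatty acid arm by 0.69 ± 0.06 log2 units in 2D, by 0.23 ± 0.01 in 3D with palmitate and by 0.37 ± 0.12 in 3D without (SD, n = 3 each). These means describe lists of different sizes and lengths, and only their change between conditions is comparable.

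**Figure D5:**
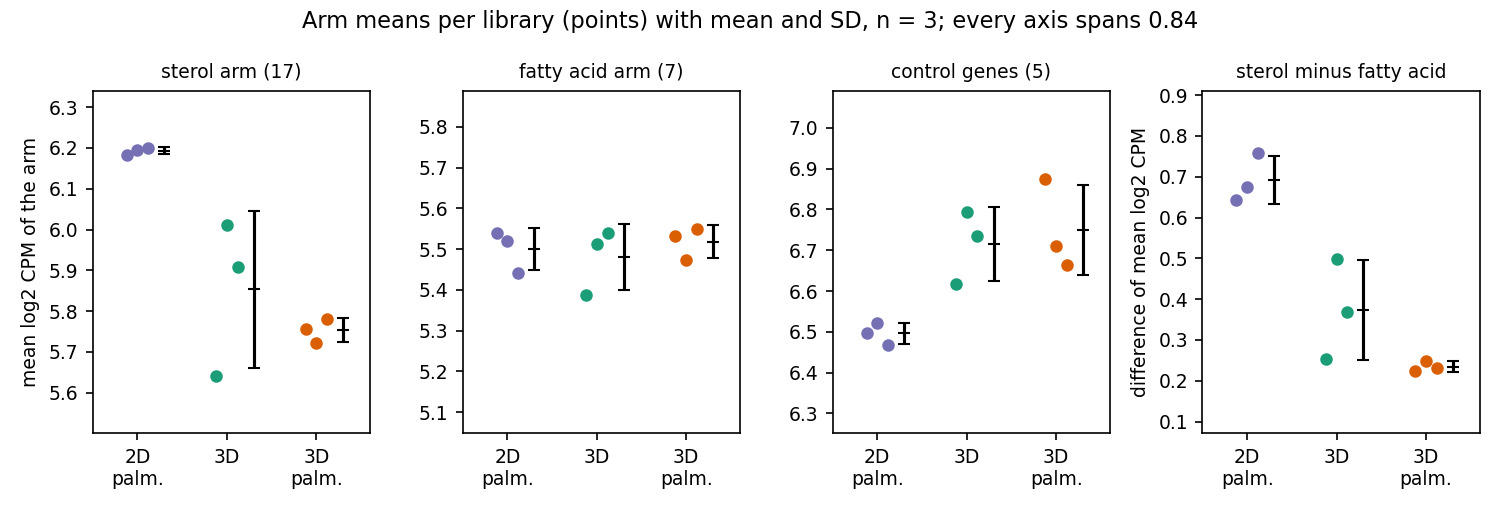
Mean log2 CPM of the 17 sterol, 7 fatty acid and 5 control genes in each library, and the sterol mean minus the fatty acid mean; points are libraries, bars the mean and SD of 3 libraries, and every vertical axis spans the same range. The sterol points of 2D lie above all 3D points, the fatty acid points of the 3 conditions overlap, and 1 library of 3D without palmitate is well below its companions in the sterol panel.

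Other genes of fatty acid and glycerolipid synthesis, and of SREBP control, were examined beside the listed ones in the same comparison. Of 15 further fatty acid and glycerolipid genes 3 rose and 9 fell in 3D in edgeR, with a median log2 fold change of -0.30. The listed fatty acid arm had a median of 0.10, so the contrast with the sterol arm depends on which fatty acid genes are counted. Of 8 further control genes 5 rose and 1 fell, and 68.3% of all tested genes were called in either direction. With the correction for GC content and exon length the counts became 1 higher and 11 lower, and 4 higher and 1 lower. All tested genes were then called in 71.8% of cases, and called lower in 36.9%. Slc25a1, the mitochondrial citrate carrier, was at -1.14 on the log2 scale (adjusted p = 1.87e-08 from edgeR), the triglyceride synthase Dgat2 at -1.36 (adjusted p = 5.39e-06) and the liver X receptor gene Nr1h2 at 0.45 (adjusted p = 0.000293). With the correction these 3 were at -1.01, -1.30 and 0.50.

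To ask what added palmitate does in 3D, the 3D cultures with palmitate were compared with those without. This comparison shares the 3D libraries with palmitate with the one before. Of the 31 tested genes 1 passed, Tmem97, where 2.19% of all tested genes were called, 1.38% higher and 0.811% lower. Tmem97 lies on chromosome 11 from 78541817 to 78550777. It had 27.8, 31.5 and 31.6 CPM in 3D without palmitate and 36.9, 40.3 and 38.1 CPM with it. The groups did not overlap, and both were below the 2D libraries. Tmem97 rose by 0.34 (standard error 0.0791, 95% interval 0.17 to 0.51, adjusted p = 0.0404 from edgeR), 1.27 times, and this call was lost in 11 of 18 alternative fits, among them 7 of the 9 that left out a single library.

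In the sterol arm 0 of 17 genes passed in edgeR and 0 in DESeq2, and 2 had an unadjusted p under 0.05 in edgeR (17.3% of all tested genes). The log2 fold changes of the arm had a median of -0.10 (range -0.36 to 0.14), and 14 of 17 were below 0, as were 47.8% of all tested genes. Hmgcs1 had an unadjusted p of 0.0123 and an adjusted p of 0.154 in edgeR, with a log2 fold change of -0.26 (95% interval -0.45 to -0.07). With the correction for GC content and exon length it was -0.24 and passed, with an adjusted p of 0.0289 in edgeR. It was the 1 sterol gene of 17 called in that fit, where 7.21% of all tested genes were called and 2.85% called lower. Idi1 had 11.7, 16.1 and 15.7 CPM without and 9.94, 11.6 and 13.3 CPM with palmitate, a log2 fold change of -0.36 (unadjusted p = 0.0360, adjusted p = 0.250 from edgeR). For both genes 1 library without palmitate, replicate 1, lay within the range of those with palmitate.

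That library was the lowest of its group for 17 of 17 sterol genes, where it was lowest for 36.8% of all genes tested, and replicate 2 was the highest for 14 of 17. The sterol genes accordingly spread more in 3D without palmitate (median coefficient of variation 14.2%) than in 3D with palmitate (8.02%) or in 2D (3.64%), while all tested genes had medians of 5.57%, 10.3% and 6.04%. Without replicate 1 the median log2 fold change of the sterol arm with palmitate was -0.16, and 0 of the 17 genes passed in edgeR. Without replicate 3 of the 3D cultures with palmitate, the smallest library, Hmgcs1 and Cyp51 were called lower in the sterol arm, at -0.35 (adjusted p = 0.00727) and -0.27 (adjusted p = 0.0432) in edgeR. In that fit 14.9% of all tested genes were called and 6.3% were called lower, so that 2 of 17 is not set apart from the background.

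The control genes and the fatty acid arm also had 0 of 5 and 0 of 7 genes past the threshold with palmitate, in edgeR and in DESeq2, with 0 and 1 at an unadjusted p under 0.05 in edgeR. Fasn was at -0.00 with a 95% interval from -0.19 to 0.18 (adjusted p = 0.992 from edgeR), so a change beyond these bounds was not seen at this depth. Acacb had 5.53, 5.62 and 5.42 CPM without and 7.10, 5.93 and 7.96 CPM with palmitate, and did not overlap, at 0.32 on the log2 scale (unadjusted p = 0.0276, adjusted p = 0.224 from edgeR). Lpin1 did not overlap in the other direction, at -0.12 (adjusted p = 0.517 from edgeR), where 10.4% of all tested genes were apart in the higher and 8.19% in the lower direction (18.6% in all). Insig1 and Insig2 had log2 fold changes of 0.16 and -0.13, Srebf1 of 0.06, Srebf2 of -0.02 and Scap of 0.15. The difference between the medians of the arms was -0.11. Of the 15 further fatty acid genes and the 8 further control genes 0 passed in edgeR and in DESeq2, with 2 and 1 at an unadjusted p under 0.05 in edgeR.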

How the data were processed

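The authors deposited raw counts of reads per gene, not normalized. According to the study's methods, 50 bp single-end reads from a stranded poly(A) kit were cleaned with fastq-mcf, inspected with FastQC (version 0.11.9), aligned to GRCm38 with HISAT2 (version 2.1.0) and counted with HTSeq-count. The annotation release and the strand setting are not given in the sources used here, so overlapping genes may share or lose reads. Palmitate was bound to albumin, and the matched vehicle went to the cultures without it.

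From the counts, genes with few reads were removed with filterByExpr and libraries were scaled by TMM in edgeR 4.0.16 (R 4.3.3). A quasi-likelihood model with condition as its only term was fitted to all 9 libraries and all 12575 genes, and genes with a Benjamini-Hochberg adjusted p under 0.05 were called. Standard errors were taken as |log2 fold change| over the square root of F, and the 95% intervals use them with the fit's degrees of freedom. CPM values are counts over the TMM-scaled library size, and log2 CPM used a prior count of 2. RPKM used exon lengths of GENCODE vM21, matched to 23376 genes by symbol and 670 by a single synonym. Promoter windows are RefSeq's (GRCm38.p6).

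Libraries of a group differed by chi-square values of 3.90 to 19.7 per gene, above sampling noise, and none was a duplicate. Totals of 6595514 to 31177756 counts limit precision most in the smallest library, and the ribosomal RNA precursor Rn45s took 1.77% to 5.38% of them.

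The listed genes, their arms, the other pathway genes and the markers were chosen with earlier results of these data known. All listed genes are named. Full values are given for those called with a change of at least 1 on the log2 scale, the control genes, Fasn, Acaca, Hmgcs1 and those failing the filter, and further genes were added after their values were seen. Other pathway genes are named as the 2 higher and 2 lower calls with the smallest p, and some of the further pathway genes are not reported here.

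The fit was repeated with RLE scaling, with library size only, without the filter, with a minimum of 10 counts per library, on the 2 groups of a comparison alone, with a replicate block, with DESeq2 1.42.0 and without each library. A further 2 were added after seeing the data: a correction of every library for its dependence on GC content and exon length (splines with 4 degrees of freedom, as offsets) and the Rn45s share as a covariate. Counts were also simulated for the 12575 genes, with 200 of them changed. For 3D over 2D, edgeR recovered 64 of 77 genes changed by 0.5 on the log2 scale, with 11 false calls. It also recovered 55 of 60 changed by 1 and 63 of 63 changed by 2. With palmitate it recovered 58 of 73, 66 of 72 and 55 of 55, with 12. The listed genes changed by less than 0.5 with palmitate, and such sizes were not simulated. Far more genes were called in 3D over 2D than were changed in the simulation, so these rates do not carry over to it.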

Additional observations from a re-analysis of the deposited data

How the results depend on the processing

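In 3D over 2D with palmitate, 536 of 558 gene values stayed on their side of the threshold over 18 alternatives and, where called, kept their direction, and so did 540 of 558 with against without palmitate in 3D. For 3D over 2D, the 2 higher sterol genes became 1 with scaling by library size only, without the filter, with the 2 groups alone and with the Rn45s share as covariate, and 1 to 2 when a library was left out. The 13 lower sterol genes stayed between 11 and 13.

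With the correction for GC content and exon length, the 3 higher fatty acid genes became 1 and the 2 lower ones 3. The share of all tested genes called lower went from 33.9% to 36.9%. The median of that arm became 0.0046, the 0 lower control genes became 2, and the difference between the arms became -0.40. Acaca (-0.25) and Scap (-0.13) reversed. Leaving out single libraries gave medians of -0.026 (without replicate 3 of 3D with palmitate) to 0.19 for the fatty acid arm and 0.28 to 0.45 for the control genes, and a difference between the arms of -0.59 to -0.44. The cause was not tested.

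With against without palmitate in 3D, the 1 higher handling gene, Tmem97, became 0 with library size only, with the 2 groups alone and with the Rn45s covariate, and 0 to 1 on leaving out libraries. The 0 lower sterol genes became 1 (Hmgcs1) without the filter and 1 with that correction, and the 0 lower handling genes became 1 (Stard4) without the filter. Leaving out libraries gave 0 to 2 lower sterol genes, 0 to 1 higher control genes, 0 to 1 lower handling genes and control medians of -0.065 (without replicate 1 of 3D with palmitate) to 0.16. Over all genes the 275 calls became 617 without the filter, 77 with the 2 groups alone, 44 with the Rn45s covariate, 902 with that correction and 71 to 1901 without single libraries, the 1901 without replicate 3 of 3D with palmitate. Of the calls 62.9% were higher, 46.7% with library size only and 52.7% without the filter.

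Replicate numbers did not pair the libraries: deviations of same-numbered libraries correlated between -0.24 and 0.15, and 2 of 9 libraries correlated best with their own number. With a replicate block in the fit, the higher handling gene with palmitate became 0 and the 275 calls 111.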
